A study of Mus musculus with 4 samples.

Results

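The genes described here are the replication-dependent histone genes, those that supply the histones packaging newly made DNA. They were taken as all rows of the deposited matrix whose symbol begins Hist1h, Hist2h, Hist3h or Hist4h, 68 of 20325 gene symbols. By the part of the symbol after the h they fall into 6 H1, 18 H2A, 19 H2B, 12 H3 and 13 H4 genes. Of these, 54 lie in the Hist1 cluster, 10 in Hist2, 3 in Hist3 and 1 in Hist4.

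RNA was sequenced from mouse C3H10T1/2 cells, a mesenchymal line of C3H embryo origin that can give rise to several connective tissue cell types. The tested cells stably expressed histone H3.3 with the K36M substitution (methionine in place of lysine 36) and a FLAG-HA tag (K36M, 2 libraries), and the reference cells stably expressed tagged wild type H3.3 (WT, 2 libraries). Both groups thus carry a tagged H3.3 transgene on top of the endogenous H3.3 genes, and the labels give passage 10 to 15 for both and do not say whether each group was 1 clone. Both were grown in DMEM with fetal bovine serum, and RNA was taken with Trizol and made into Illumina TruSeq libraries. Nothing in the labels says that a group's libraries are independent cultures. Each p-value below is therefore set against the spread of these 4 libraries alone, and that spread may be technical.

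Replication-dependent histone genes are transcribed in S phase, when DNA is copied, and their mRNAs end in a short stem-loop instead of a poly(A) tail. The stem-loop is bound by SLBP, the stem-loop binding protein, which is needed for cutting, translation and decay of these mRNAs. H2A, H2B, H3 and H4 form the core particle around which DNA is wrapped, and H1 is the linker histone that sits where DNA enters and leaves it. H3.3, the protein the transgene encodes, is made throughout the cell cycle from the genes H3f3a and H3f3b, whose mRNAs carry poly(A) tails. Libraries made from poly(A)-selected RNA capture stem-loop mRNAs poorly, and the sources used here do not give whether these libraries were so selected, or whether counting used strand. In bulk RNA, fewer cells in S phase and less histone mRNA per cell in S phase cannot be told apart.

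The stem-loop is shown because most members hold it, though a match was not found in all. In the mouse annotation used here (GENCODE M21, build GRCm38), 51 members have a transcript with at least 30 bases after the stop codon, and 43 hold a 16-base match to the histone stem-loop consensus within the first 100 of those bases, on the gene's own strand. In the lines that follow, from the linker histone gene Hist1h1c (chr13:23739512-23739527, plus strand), the H3 genes Hist1h3a (chr13:23761890-23761905, minus strand) and Hist1h3g (chr13:23535889-23535904, plus strand) and the H4 gene Hist1h4i (chr13:22040966-22040981, minus strand), capitals mark the paired stem.
Hist1h1c: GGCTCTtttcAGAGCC
Hist1h3a: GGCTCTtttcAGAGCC
Hist1h3g: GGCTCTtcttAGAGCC
Hist1h4i: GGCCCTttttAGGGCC
The stem began GGCTCT in 33 members and GGCCCT in 10, and all of those 10 were H4 genes. Of the 35 tested members with a match, 25 were called lower in K36M cells at an edgeR adjusted p under 0.05 (71.4%, beside 71.7% of all tested members and 37.1% of all genes tested). Of the 8 tested members with as much annotated sequence and no match, 6 were called lower.

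The 4 libraries held 56041798 and 34022137 expected counts in K36M cells and 25322433 and 23343297 in WT cells. Histone genes took a small share of them, 0.0707% and 0.0652% in the K36M libraries against 0.106% and 0.111% in the WT libraries. Only 19 of the 68 genes averaged over 100 counts per library and 18 averaged under 10, so single genes are less certain than class sums. All 9 mesenchymal marker genes looked up were tested, and they summed to 25602 and 23787 CPM (counts per library size, scaled by TMM) in the K36M libraries and 41342 and 41794 CPM in the WT libraries. They went both ways: 3 were called higher (Thy1 11.2-fold, Twist1 and Col1a1) and 5 lower. Fn1 (3.04-fold), Col1a2 (1.72-fold) and Col3a1 (2.88-fold) carried most of the lower sum. Markers of other lineages were low but not level between groups: 5 epithelial markers summed to 24.2 and 25.7 CPM in K36M and 12 and 11 CPM in WT, and 4 neural markers to 26 and 25.4 CPM in K36M and 15.1 and 14.4 CPM in WT. Within these lists too the genes went both ways. Cdh1 was called higher (22.3 and 24.1 CPM in K36M, 5.89 and 5.56 CPM in WT) and Krt14 lower (0.77 and 0.713 CPM in K36M, 5.95 and 5.25 CPM in WT), and among neural markers Tubb3 was called higher (1.92-fold) and Gfap lower (3.32-fold). The 6 blood and 4 endothelial markers each summed to under 3 CPM in every library, and Epcam, Cd3e, Hbb-b1 and Olig2 had 0 counts throughout. The part of these differences in the histone results was not tested.

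Histone classes H1, H2A, H2B and H4 were lower in K36M cells, and the H3 class was not. Summed over its genes and given as CPM, class H1 stood at 88.7 and 87.5 in the K36M libraries against 301 and 310 in the WT libraries, 3.47-fold lower. Class H4 stood at 16.7 and 13.4 CPM against 47.8 and 49.7 CPM in WT, 3.24-fold lower, and class H2B at 76.0 and 74.7 CPM against 209 and 217 CPM in WT, 2.83-fold lower. Class H2A moved less, with 48.4 and 43.8 CPM in K36M and 87.4 and 87.6 CPM in WT, 1.90-fold lower. In each of these sums both K36M libraries lay below both WT libraries. The H3 sum was 468 and 419 CPM in K36M and 439 and 463 CPM in WT, a ratio of 0.983, and the groups overlapped. As group means ± SD (n = 2 libraries each), the H3 sum was 443 ± 34.5 CPM in K36M and 451 ± 16.4 CPM in WT. Sums over chosen genes were given no test.

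**Figure D1:**
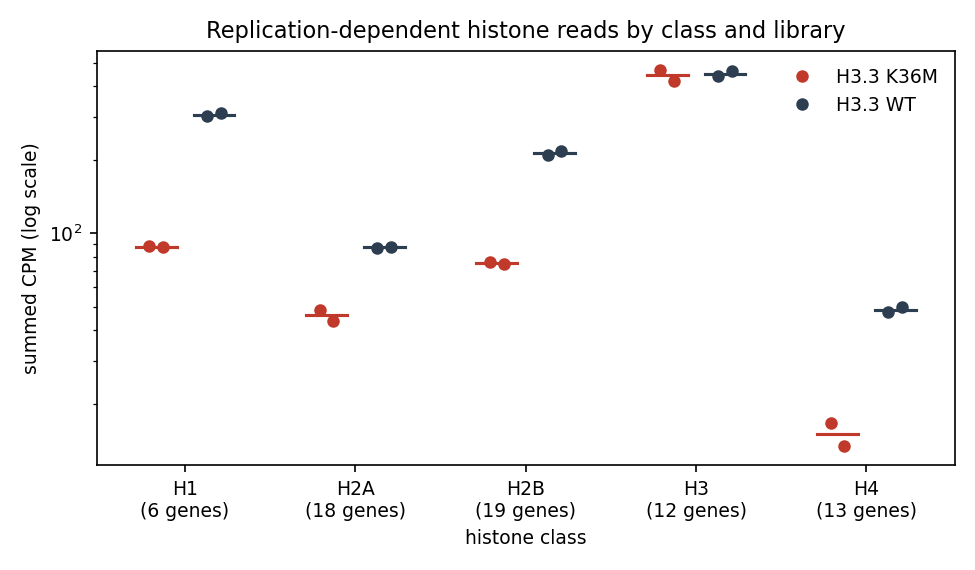
Summed CPM (log scale) of the genes of each histone class, with K36M libraries on the left and WT libraries on the right of each pair; points are libraries and bars group means. H1, H2A, H2B and H4 sums are lower in both K36M libraries, while the H3 points (468 and 419 in K36M, 439 and 463 in WT) overlap.

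The balance of assigned reads between classes therefore differed between the groups. For H3 it rests on Hist1h3a and Hist1h3b, which held from 75.6% (WT replicate 2) to 85.8% (K36M replicate 2) of the H3 sum. Without them the H3 sum had a log2 ratio, K36M over WT, of -0.53. The sources used here do not give whether transgene reads were assigned to them. H3 genes made up 67.1% and 65.6% of all histone CPM in the K36M libraries and 40.5% and 41% in the WT libraries. The H3 sum was 28.1 and 31.2 times the H4 sum in K36M, against 9.20 and 9.31 times in WT. Values per kilobase of coding sequence allow for gene length. On that scale H3 genes summed to 1061 CPM in K36M and 1065 CPM in WT, without Hist2h3c2-ps, which has no annotated coding sequence. H4 genes summed to 48.2 CPM in K36M and 156 CPM in WT. Without H3, the remaining 56 genes summed to 230 and 219 CPM in K36M and 645 and 665 CPM in WT, 2.92-fold lower.

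Gene by gene, 53 of the 68 members passed the filter on low counts and were tested with edgeR's quasi-likelihood test of K36M against WT, run on the whole table. Of the 53, 40 passed an adjusted p of 0.05, or 75.5%, beside 75.6% of all 13162 genes tested, so being called was no more frequent than elsewhere in the table. The direction was not: 38 members were lower (71.7%, beside 37.1% of all genes) and 2 were higher (3.77%, beside 38.5% of all genes). The median log2 fold change was -1.26 over the tested members and 0.00 over all genes. Of the 41 tested genes of the other 4 classes, 33 were lower, 30 of them at least 2-fold, and 0 were higher (0 also at an unadjusted p under 0.05; limma-voom called 1 higher, and fits without 1 library 0 to 2). The groups' libraries did not overlap in 79.2% of tested members, beside 87.1% of all genes. The 15 untested members had at most 50.2 counts over the 4 libraries, and 1, Hist1h2ap, had 0 in all.

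**Figure D2:**
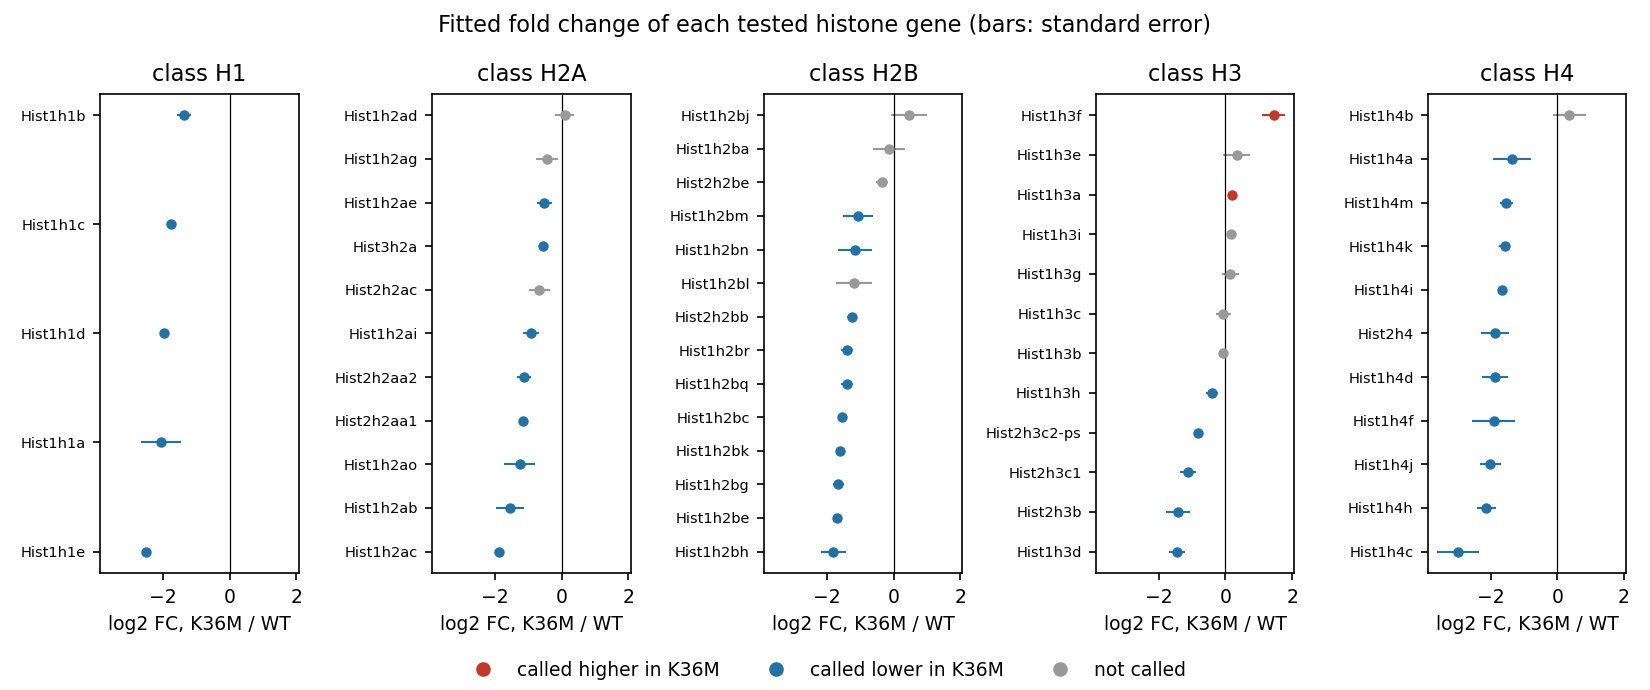
Fitted log2 fold change, K36M over WT, of each of the 53 tested histone genes by class; bars are standard errors (log2 fold change over the square root of the F statistic) and colours give the call. Most genes of classes H1, H2A, H2B and H4 lie between -1 and -2, while H3 genes spread on both sides of 0.

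All 5 tested linker histone genes fell (100%, beside 37.1% of all genes tested). Hist1h1c, which encodes the somatic linker histone H1.2 and is known to give poly(A)-tailed transcripts too, held 92.2% of the class's CPM in K36M and 90.5% in WT. It had 81.5 and 80.9 CPM in K36M and 272 and 281 CPM in WT, with no overlap (log2 fold change -1.77 ± 0.04 SE, edgeR adjusted p = 1.07e-17). Hist1h1d (H1.3) had 4.11 and 3.84 CPM in K36M and 16.3 and 14.8 CPM in WT (log2 fold change -1.96, edgeR adjusted p = 2.61e-12). Hist1h1e (H1.4) was lower still relative to WT, with 1.89 and 1.67 CPM in K36M and 9.36 and 11.2 CPM in WT, 5.65-fold (edgeR adjusted p = 5.16e-12). Hist1h1a (H1.1) had 3 and 5 counts in K36M and 10 and 8 in WT, and its 4.17-fold fall was not called without K36M replicate 1 (log2 fold change -1.36, edgeR adjusted p = 0.115). Hist1h1b (H1.5) fell 2.59-fold. Hist1h1t, the testis linker histone, had 1 and 0 counts in K36M and 4 and 0 in WT, and was not tested.

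Of 18 H2A genes 11 were tested, and 8 fell (72.7%, beside 37.1% of all genes tested). Hist3h2a, from the small Hist3 cluster, was the most read and the least lowered of the called ones after Hist1h2ae: it had 23.1 and 22.5 CPM in K36M and 33.8 and 33.9 CPM in WT, 1.48-fold lower (edgeR adjusted p = 4.68e-08). Hist2h2aa1 had 15.5 and 12 CPM in K36M and 31.4 and 31.4 CPM in WT, 2.25-fold lower (edgeR adjusted p = 7.62e-10). Hist1h2ac had 2.48 and 2.83 CPM in K36M and 9.03 and 10.3 CPM in WT, 3.68-fold lower (edgeR adjusted p = 9.63e-11). In all of these the groups were apart, and the fall in Hist1h2ac was the largest of the class. Hist1h2ad, Hist1h2ag and Hist2h2ac did not pass the test, with log2 fold changes of 0.09, -0.44 and -0.67 and edgeR adjusted p of 0.775, 0.242 and 0.0596. Hist2h2ac was called lower without K36M replicate 1 (adjusted p = 0.0432) and Hist1h2ad higher without WT replicate 2 (log2 fold change 0.89, adjusted p = 0.0193). Hist1h2ae (1.43-fold lower, edgeR adjusted p = 0.0404) was not called without K36M replicate 1 (0.269), WT replicate 1 (0.155) or WT replicate 2 (0.091). Hist1h2ao was called lower although its libraries overlapped, and without WT replicate 1 its log2 fold change was -0.05 (edgeR adjusted p = 0.944). Both were named after their values were seen.

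Of 19 H2B genes 14 were tested, and 10 fell (71.4%, beside 37.1% of all genes tested). Hist1h2bc, another gene known to give poly(A)-tailed transcripts, held 67.6% of the class in K36M and 70.6% in WT. It had 51.1 and 50.7 CPM in K36M and 145 and 156 CPM in WT, 2.95-fold lower (edgeR adjusted p = 9.56e-16). Hist1h2bk had 9.23 and 9.92 CPM in K36M and 28.0 and 30.5 CPM in WT, 3.07-fold lower (edgeR adjusted p = 1.1e-12). Hist2h2bb had 2.92 and 2.63 CPM in K36M and 7.83 and 5.56 CPM in WT, 2.40-fold lower (edgeR adjusted p = 5.21e-07). Both K36M libraries lay below both WT libraries in each. Hist2h2be, which also gives poly(A)-tailed transcripts, had 2.54 and 1.96 CPM in K36M and 2.58 and 3.26 CPM in WT and did not pass the test (log2 fold change -0.34, edgeR adjusted p = 0.0955). Nor did Hist1h2ba, the testis H2B gene (-0.13, adjusted p = 0.822), Hist1h2bj (0.47, adjusted p = 0.451) or Hist1h2bl (-1.20, adjusted p = 0.051). Several of these results changed when a library was left out. Hist1h2ba turned to a log2 fold change of 1.89 (edgeR adjusted p = 0.00988) without WT replicate 1 and to -0.89 (0.036) without WT replicate 2. Hist2h2be was called lower without K36M replicate 1 (-0.57, adjusted p = 0.0209) and without WT replicate 1 (-0.52, 0.0396). Hist1h2bl, with 58.4 and 0.31 counts in K36M and 35 and 33 in WT, lay at the threshold: its log2 fold change ran from -8.29 without K36M replicate 1 to -0.47 without K36M replicate 2. It was called lower without K36M replicate 1 and without WT replicate 1 (edgeR adjusted p = 4.34e-13 and 0.0428). With all libraries it was called lower under DESeq2 size factors, total counts, the authors' factors, no filter, limma-voom and the replicate block, and not under upper quartile scaling or DESeq2's Wald test. Hist1h2bj, with 58.6 and 60.9 counts in K36M and 46.4 and 0 in WT, was called higher without K36M replicate 1 and without WT replicate 1. Among the called genes, Hist1h2bm (-1.07, edgeR adjusted p = 0.0371) and Hist1h2bn (-1.15, 0.0475) lay near the threshold. With all libraries, both lost their calls under DESeq2's Wald test and the replicate block. Without 1 library their log2 fold changes ran from -1.22 to -0.91 and from -2.28 to -0.72. Hist1h2bq and Hist1h2br had identical counts in every library and cannot be read as separate genes.

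The H4 genes encode 1 core histone from many copies, and 10 of the 11 tested fell (90.9%, beside 37.1% of all genes tested). Hist1h4i held 61.7% of the class in K36M and 60.5% in WT, with 9.45 and 9.09 CPM in K36M and 27.9 and 31.1 CPM in WT, 3.17-fold lower (edgeR adjusted p = 8.9e-13). Hist1h4m had 2.35 and 1.32 CPM in K36M and 6.54 and 4.75 CPM in WT, 2.91-fold lower (edgeR adjusted p = 1.55e-06). Hist1h4k had 2.07 and 1.27 CPM in K36M and 5.35 and 5.22 CPM in WT, 3.02-fold lower (edgeR adjusted p = 2.06e-07). None of these overlapped between groups. The largest falls of the class were in weakly read genes: Hist1h4c (5.81 and 0 counts in K36M, 14.6 and 11.2 in WT; log2 fold change -2.99 ± 0.62 SE), Hist1h4h (4.42-fold) and Hist1h4j (4.04-fold). All stayed called when 1 library was left out, with log2 fold changes from -6.91 to -2.32 for Hist1h4c, -3.07 to -1.75 for Hist1h4h and -2.55 to -1.44 for Hist1h4j, the extremes coming from leaving out a K36M library. The value of Hist1h4c is a fit against a library at 0 and depends on the prior count. Hist1h4a and Hist1h4f (edgeR adjusted p = 0.0396 and 0.0128) also had 0 counts in K36M replicate 2. With all libraries, DESeq2's Wald test called neither, and the replicate block did not call Hist1h4a. Without 1 library their log2 fold changes ran from -7.34 to -0.67 and from -6.54 to -1.23. Hist1h4b did not pass the test (log2 fold change 0.36, edgeR adjusted p = 0.520). The single Hist4 gene, Hist4h4, had 6 and 1 counts in K36M and 4 and 6 in WT, too few to test.

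The H3 class behaved otherwise: all 12 genes were tested, and 5 were lower, 2 higher and 5 not called. In this class 41.7% were lower, near the 37.1% of all genes tested, and 16.7% higher, beside 38.5%. Its reads were held by Hist1h3a and Hist1h3b, which gave 84.1% and 85.8% of the class in the K36M libraries and 81.7% and 75.6% in the WT libraries. Hist1h3a had 248 and 212 CPM in K36M and 204 and 195 CPM in WT, with no overlap and a small rise of 1.15-fold (log2 fold change 0.21 ± 0.055 SE, edgeR adjusted p = 0.00231). With DESeq2's Wald test the adjusted p of Hist1h3a was 0.0936, and over all alternatives it ran from 9.34e-16 to that value. Without K36M replicate 1 its log2 fold change was 0.09. Hist1h3b had 146 and 148 CPM in K36M and 155 and 155 CPM in WT, apart by little, and did not pass the test (log2 fold change -0.08 ± 0.039 SE, edgeR adjusted p = 0.0753). With the library factors of the authors' deposited table in place of TMM it was called lower (-0.17), and the rise of Hist1h3a was 0.12.

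Beneath these genes the H3 copies went several ways. Hist1h3h had 40.0 and 29.3 CPM in K36M and 32.0 and 62.3 CPM in WT, so the groups overlapped. Its call as lower (log2 fold change -0.41, edgeR adjusted p = 0.0435) was not kept without WT replicate 2, when the log2 fold change was 0.13 (adjusted p = 0.298). It was also lost with all libraries under upper quartile scaling, total counts, a mean of 5 CPM, DESeq2's Wald test, limma-voom and the replicate block, with adjusted p from 0.0589 to 0.462. Hist1h3d had 9.09 and 3.15 CPM in K36M and 16.7 and 19.8 CPM in WT, 2.78-fold lower (edgeR adjusted p = 1.76e-05), with log2 fold changes of -2.52 without K36M replicate 1 and -1.0 without K36M replicate 2. Hist1h3f, a weakly read copy, had 1.41 and 1.17 CPM in K36M and 0.715 and 0.214 CPM in WT, 2.72-fold higher (edgeR adjusted p = 0.00111), with log2 fold changes from 0.84 without WT replicate 2 to 2.57 without WT replicate 1. Hist2h3b, Hist2h3c1 and Hist2h3c2-ps, the H3 entries of the Hist2 cluster, all fell, by 2.67-fold, 2.17-fold and 1.79-fold, Hist2h3b losing its call without WT replicate 1 (edgeR adjusted p = 0.109). Hist1h3c, Hist1h3e, Hist1h3g and Hist1h3i did not pass the test, with log2 fold changes of -0.06, 0.34, 0.15 and 0.16. Without WT replicate 1, Hist1h3e (2.38) and Hist1h3g (0.73) were called higher, and Hist1h3i was called higher without K36M replicate 1 (0.29) and without WT replicate 2 (0.33). Left without Hist1h3a and Hist1h3b, the other 10 H3 genes summed to 74.4 and 59.5 CPM in K36M and 80.6 and 113 CPM in WT, a log2 ratio of -0.53.

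**Figure D3:**
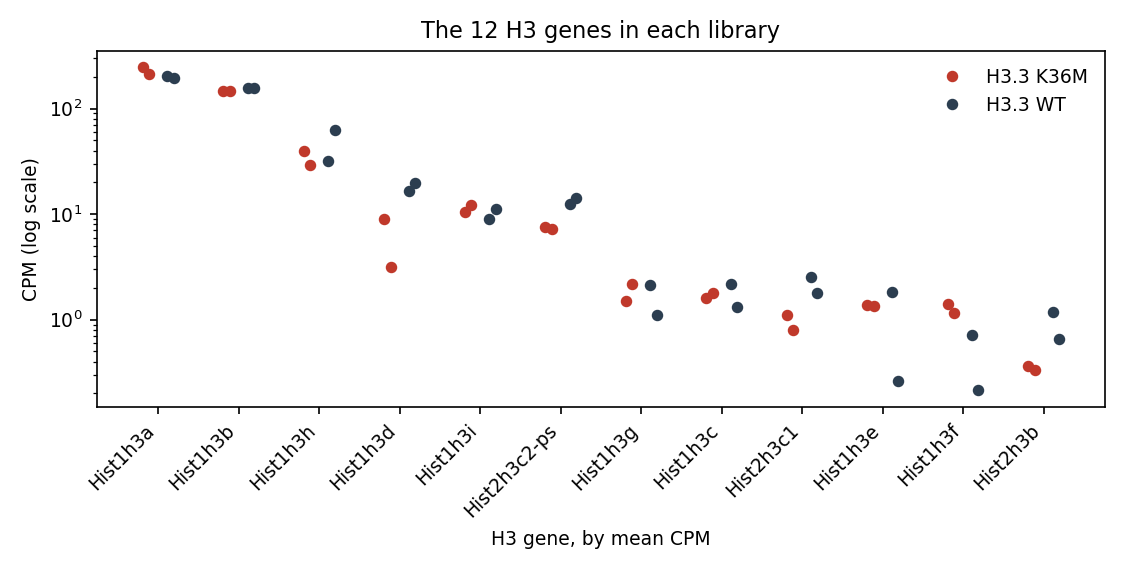
CPM (log scale) of the 12 H3 genes in each library, ordered by mean, with K36M libraries left of WT libraries. Hist1h3a and Hist1h3b stand far above the rest and differ little between groups, while Hist2h3c2-ps and Hist1h3d are lower in K36M and Hist1h3h overlaps.

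The H3 copies are nearly the same sequence, which bears on how reads could be divided among them. The coding sequences of Hist1h3a and Hist1h3b differ at 10 bases and share an identical run of 215, and Hist1h3a and Hist1h3h differ at 5. Against H3f3b and H3f3a, which encode H3.3, Hist1h3a differed at 80 and 94 bases, with longest identical runs of 21 and 14. The stretch around the codon for lysine 36, the residue changed in the mutant, shows this; each line gives 45 coding bases of the annotated mouse gene (GRCm38) with that codon in capitals. The stretches lie at chr13:23762222-23762266 (minus strand, Hist1h3a), chr13:23752467-23752511 (plus strand, Hist1h3b), chr1:180810267-180811839 (minus strand, H3f3a) and chr11:116023775-116023922 (minus strand, H3f3b), the H3.3 stretches each spanning an intron.
Hist1h3a: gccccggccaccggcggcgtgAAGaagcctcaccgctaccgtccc
Hist1h3b: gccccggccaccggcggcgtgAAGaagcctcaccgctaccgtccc
H3f3a: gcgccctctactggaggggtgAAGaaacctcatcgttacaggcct
H3f3b: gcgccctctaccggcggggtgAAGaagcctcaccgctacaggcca
In this stretch Hist1h3a and Hist1h3b had 0 differences, while H3f3a and H3f3b differed from Hist1h3a at 13 and 8 bases. The coding sequence of the transgene was not used here, and the sources used here do not give whether its reads were assigned to any H3 gene. Beside the H3 class, H3f3a had 389 and 409 CPM in K36M and 694 and 687 CPM in WT, and H3f3b 812 and 844 CPM in K36M and 1019 and 981 CPM in WT, both called lower (log2 fold changes -0.79 and -0.27, edgeR adjusted p = 5.78e-13 and 3.21e-06).

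Identical stretches ran through most of the family. Of 66 members with an annotated coding sequence, 52 had fewer than 50% of their coding 50-mers (stretches of 50 bases) to themselves among all GENCODE transcripts, and 12 had none. All 6 H1 genes had at least 50% to themselves, and held 22679 counts over the 4 libraries. Such genes of H2A, H2B, H3 and H4 held 6.23, 469, 0 and 145 counts. A sum over genes with at least 50% to themselves thus mainly follows H1 and says little of the other classes. RSEM divides reads that match several genes by estimate, so values of such copies can trade against each other. The libraries of a group differed by a median of 0.15 (K36M) and 0.14 (WT) on the log2 scale over the 19 members averaging over 100 counts, against 0.06 and 0.05 over all tested genes of that depth. Over the 36 less read members with reads in every library, the medians were 0.49 in K36M and 0.47 in WT. The extremes were Hist1h2bl in K36M (1.03 and 0.00892 CPM, a difference of 6.85) and Hist1h3e in WT (1.84 and 0.262 CPM, 2.81). Class sums differed between libraries of a group by at most 0.31 in K36M and 0.07 in WT.

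**Figure D4:**
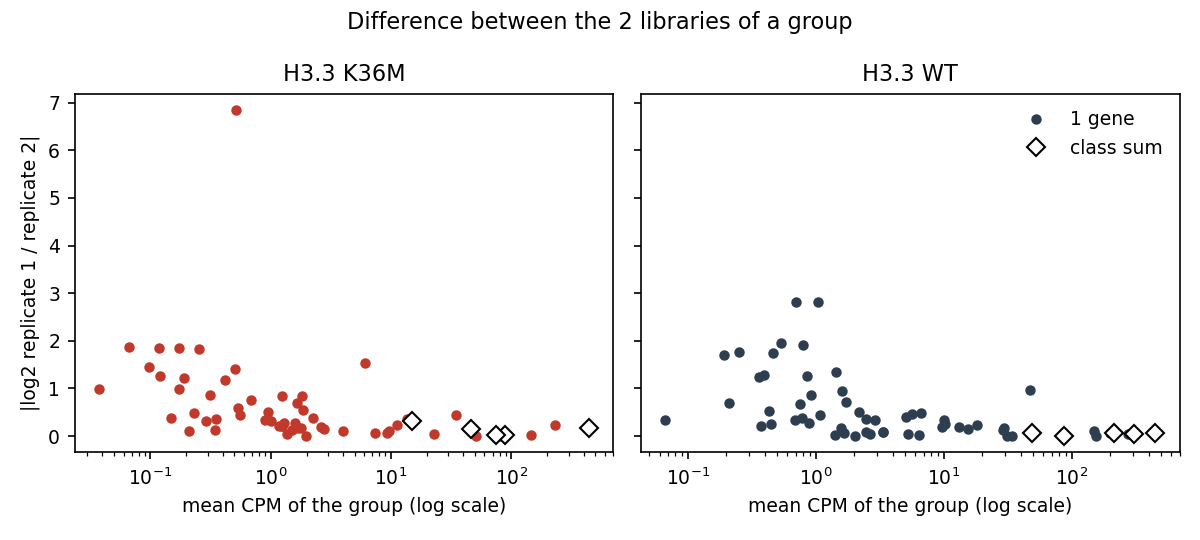
Absolute log2 difference between the 2 libraries of a group against the group's mean CPM (log scale), for the 55 histone genes with reads in every library (filled) and for the 5 class sums (open diamonds), with K36M on the left and WT on the right. Weakly read genes differ most, by up to 6.85 in K36M, and the class sums by at most 0.31.

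By cluster, the fall was seen in Hist1, Hist2 and Hist3. The Hist1 genes, on mouse chromosome 13, summed to 642 and 589 CPM in K36M and 989 and 1033 CPM in WT, 1.64-fold lower with the H3 genes included. The Hist2 genes, on chromosome 3, summed to 31.8 and 26.2 CPM in K36M and 61.8 and 60.3 CPM in WT, 2.10-fold lower. The Hist3 genes, on chromosome 11, summed to 23.3 and 22.8 CPM in K36M and 33.9 and 34.1 CPM in WT, 1.47-fold lower, nearly all of it Hist3h2a. Both K36M libraries lay below both WT libraries in each cluster.

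RefSeq promoter windows, 250 bases before to 50 after the start on GRCm38.p6, were matched for 61 members through current and older symbols. The unmatched 7 include Hist1h3a and Hist1h3f, the members called higher, and Hist1h2bc. The motif CCAAT, searched on both strands, was found in every matched promoter of H1 (6), H2A (17), H2B (16) and H3 (10) genes and in 3 of 12 H4 promoters, against 37.9% of the 27025 promoters of all genes. TATAAA, also on both strands, was found in 57.4% of member promoters and 14.2% of all, with shares of 66.7%, 64.7%, 50%, 40% and 66.7% in classes H1, H2A, H2B, H3 and H4. The windows of Hist1h3b (chr13:23752095-23752394, plus strand), not called, and Hist1h1c (chr13:23738557-23738856, plus strand), lower in K36M, are shown with these motifs in capitals.
Hist1h3b: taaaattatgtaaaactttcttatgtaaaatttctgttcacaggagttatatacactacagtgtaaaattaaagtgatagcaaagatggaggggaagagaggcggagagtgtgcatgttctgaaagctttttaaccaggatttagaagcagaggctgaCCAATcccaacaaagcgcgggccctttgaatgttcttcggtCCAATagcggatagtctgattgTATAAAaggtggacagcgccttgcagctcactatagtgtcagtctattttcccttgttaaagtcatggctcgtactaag
Hist1h1c: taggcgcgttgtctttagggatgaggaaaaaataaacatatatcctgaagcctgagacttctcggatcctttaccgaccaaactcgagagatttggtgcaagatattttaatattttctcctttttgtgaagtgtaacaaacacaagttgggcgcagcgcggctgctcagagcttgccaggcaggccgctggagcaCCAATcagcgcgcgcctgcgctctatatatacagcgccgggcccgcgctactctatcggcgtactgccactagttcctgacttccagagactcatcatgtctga
Both hold CCAAT, and Hist1h3b also TATAAA. These letters describe the windows and show no binding.

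Genes around histone supply moved differently from the histone genes. Of 25 S phase genes, 22 were higher in K36M and 0 lower (0 also at an unadjusted p under 0.05, and 0 by DESeq2 and limma-voom), beside 38.5% higher among all genes, with a median log2 fold change of 0.58. The largest rises were of Mcm2, part of the replicative helicase (182 and 171 CPM in K36M, 82.3 and 78.4 CPM in WT), of the licensing factor Cdt1 (2.13-fold), and of Chaf1a (1.99-fold), a subunit of the CAF-1 chaperone that places H3 and H4 on new DNA. These groups did not overlap. The cyclin E genes Ccne1 and Ccne2, which drive entry into S phase, did not pass the test (log2 fold changes -0.01 and 0.13).

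Of 18 genes for making, processing or degrading histone mRNA, 9 were higher (50%, beside 38.5% of all genes) and 4 lower (22.2%, beside 37.1%), with a median log2 fold change of 0.13. Being called was about as frequent as in the whole table, 72.2% beside 75.6%. Slbp, the stem-loop binding protein gene, had 64.3 and 64.2 CPM in K36M and 49.9 and 48.1 CPM in WT, 1.31-fold higher (edgeR adjusted p = 5.65e-07). Npat, the coactivator of histone gene transcription at histone locus bodies, had 40.3 and 42.9 CPM in K36M and 45.4 and 45.7 CPM in WT, 1.10-fold lower (edgeR adjusted p = 0.0219). Eri1, an exonuclease that trims and degrades histone mRNA, had 71.2 and 73.0 CPM in K36M and 49.9 and 49.2 CPM in WT (log2 fold change 0.54), and Lsm11, of the U7 particle that directs histone mRNA cutting, rose 1.48-fold. Upf1, a helicase needed for histone mRNA decay when replication stops, had 88.9 and 83.9 CPM in K36M and 144 and 149 CPM in WT, 1.69-fold lower (edgeR adjusted p = 2.03e-11).

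Of 11 replication-independent histone genes, 6 were higher (54.5%, beside 38.5% of all genes) and 2 lower (18.2%, beside 37.1%), and the lower ones were the H3.3 genes. Called genes made up 72.7%, near the 75.6% of all genes, and 4 were higher with the authors' factors and without WT replicate 2. H1f0, the linker histone H1.0 of slowly dividing cells, had 763 and 759 CPM in K36M and 654 and 656 CPM in WT, 1.16-fold higher, and H1fx, another linker histone, 52.3 and 45.4 CPM in K36M and 36 and 34.4 CPM in WT, 1.40-fold higher. The H2A variant gene H2afx, whose product is phosphorylated at DNA breaks, had 114 and 100 CPM in K36M and 84.8 and 78.5 CPM in WT, 1.32-fold higher (edgeR adjusted p = 4.85e-06). H2afz, H2afv and H2afj did not pass the test (log2 fold changes 0.04, -0.01 and 0.07). Unlike the H1 genes of the Hist1 cluster, both replication-independent linker histone genes were thus higher in K36M cells.

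**Figure D5:**
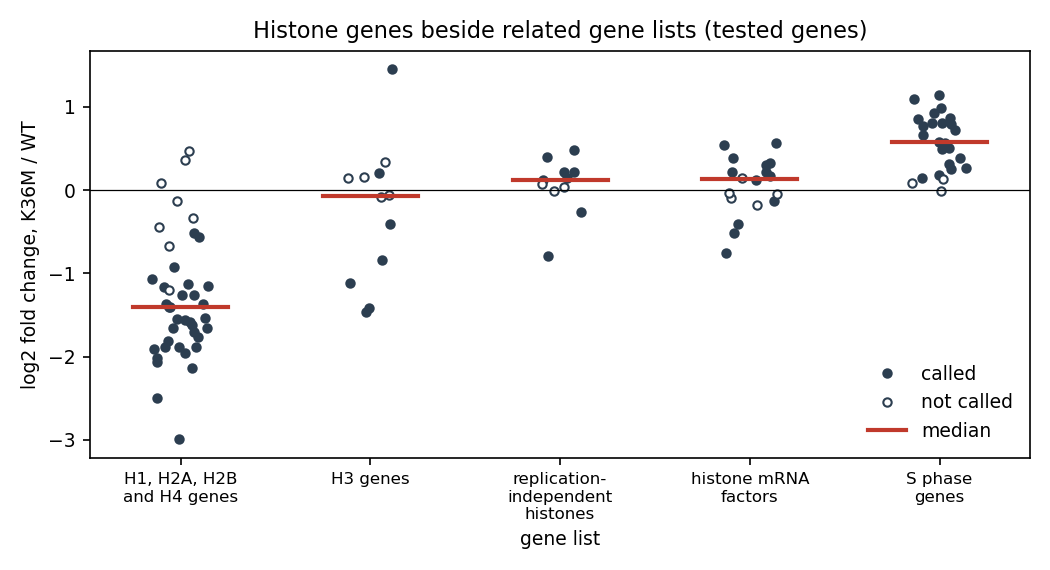
Fitted log2 fold change, K36M over WT, of tested genes in each list; filled points were called, open points were not, and red bars are medians. The 41 H1, H2A, H2B and H4 genes centre near -1.40 and the 12 H3 genes near -0.07, while S phase genes centre near 0.58 and the other lists near 0.12 and 0.13.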

How the data were processed

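The deposited matrix holds RSEM expected counts per gene symbol, per the file headers; Bowtie 1.0.0, RSEM 1.2.12 and build mm9 are named, per the submitters' processing notes. In the deposited table of 594 genes the authors give log2 values and a linear fold ratio; it holds 0 of the 68 members and served only for the library factors. For testing, counts were rounded to whole numbers; R 4.3.3 and edgeR 4.0.16 were used with filterByExpr, TMM, quasi-likelihood F test, Benjamini-Hochberg over 13162 genes, 2 residual degrees of freedom; DESeq2 1.42.0 and limma 3.58.1 gave alternatives. The libraries of each group differed by more than counting error (chi-square between them averaged 7.50 per gene in K36M, 3.60 in WT). These values depend on depth and cannot show separate cultures. Sums use unrounded counts over TMM library sizes. The code was tested on simulated data. A floor of 3 counts is 0.0535 and 0.0882 CPM in the K36M libraries and 0.118 and 0.129 in the WT libraries, counting error only. Unlike the other CPM values, this floor uses total counts without TMM scaling. Members and lists were chosen with earlier results of these data known. Named genes are the 3 most read per class, the 5 largest rises and falls among called members, and uncalled members; others were named after their values were seen.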

Additional observations from a re-analysis of the deposited data

How the results depend on the processing

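The sums of classes H1, H2A, H2B and H4 were lower in K36M under each scaling tried and without any 1 library. Members called lower numbered 38, and 30 to 43 elsewhere, except 11 at a mean of 5 CPM (9 without H3), where only 15 members were tested. Members called higher (2) numbered 1 at a mean of 5 CPM and with DESeq2's Wald test, and 2 to 6 when 1 library was left out (4 without K36M replicate 1, 6 without WT replicate 1, 4 without WT replicate 2). Among the other classes 1 was called higher by limma-voom and 0 to 2 without 1 library. With the replicate number as a block, 34 members were lower and 2 higher, and 35 of the 40 calls were kept. Over genes, libraries of the same number did not deviate together (correlation 0.0026). This value rests on 1 pair of libraries per group and cannot show whether libraries of the same number were prepared together. DESeq2's Wald test kept 31 calls and called 2 histone mRNA factors lower in place of 4. Of 651 comparisons of member genes with a setting, 585 kept their call status; 11 of these, over 8 genes called in neither setting, had the other sign.

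As log2 ratios, the sum of all members (-0.73) was -1.05 without its most read gene and -0.34 without Hist1h1c, Hist1h2bc and Hist2h2be. It was -1.37 without Hist1h3a and Hist1h3b and -1.76, near class H1, over genes with at least 50% unique 50-mers (none H3, counts mostly H1). The last 2 settings were chosen after seeing the data. Without H3 (-1.54) the sum was -1.63 with the authors' factors, -1.40 without the most read gene, -1.32 without those 3 genes and the same -1.76 over unique genes. Class H1 (-1.79) was -1.75 under upper quartile scaling, -1.74 under total counts, -1.88 with the authors' factors and -2.07 without Hist1h1c. Class H2A (-0.92) was -1.20 without Hist3h2a and -3.34 over its 2 unique genes, Hist1h2aa and Hist2h2ab, with 6.23 counts in all libraries together. Class H2B (-1.50) was -1.45 under total counts, -1.59 with the authors' factors, -1.36 without Hist1h2bc and -1.43 also without Hist2h2be. Over its 3 unique genes, Hist1h2ba, Hist2h2be and Hist3h2ba, with 469 counts, it was -0.23. Class H3 (-0.02) was -0.24 without Hist1h3a and -0.53 without Hist1h3b too, and between -0.11 and 0.05 without 1 library. Class H4 (-1.70) was -2.00 over its 3 unique genes, with 145 counts. The Hist1 cluster (-0.72) was -1.07 without Hist1h3a and -0.27 without Hist1h1c and Hist1h2bc. Hist3 (-0.56) was -0.52, -0.51 and -0.64 under upper quartile, total counts and the authors' factors, and reversed to 1.32 without Hist3h2a, on a handful of counts.

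Against the fit with all libraries, genes that took the other sign and were called in either fit were Hist1h2ba, Hist1h3h and H2afj. Hist1h2ba (-0.13 with all libraries) was at 1.89 without WT replicate 1 and -0.89 without WT replicate 2. Hist1h3h (-0.41 with all) was at 0.13 without WT replicate 2 and -0.83 without WT replicate 1. H2afj (0.07 with all) was at -0.13 without K36M replicate 1 and 0.22 without K36M replicate 2. Others took the other sign without being called there. Without a WT library their lowest values were -0.44 for Hist1h3e, -0.47 for Hist1h2bj, -0.45 for Hist1h2ad, -0.21 for Hist1h4b and -0.22 for Hist1h3g. With all libraries they were 0.34, 0.47, 0.09, 0.36 and 0.15, and their highest without the other WT library 2.38, 8.69, 0.89, 1.40 and 0.73. All but Hist1h4b were called higher in the fits with these highest values. The causes of these shifts were not tested. Without 1 library the log2 ratios ran from -1.82 to -1.77 for H1, -1.0 to -0.85 for H2A, -1.53 to -1.47 for H2B and -1.86 to -1.55 for H4. Depth limits the 18 members that average under 10 counts.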
